A study of Saccharomyces cerevisiae with 27 samples.

Results

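The genes of a-cell identity and mating were followed in BY4741, a haploid MATa laboratory strain of Saccharomyces cerevisiae that carries his3Δ1, leu2Δ0, met15Δ0, and ura3Δ0. The members were 9 named genes of the 6692 in the table, taken by name. They are MFA1 (YDR461W), MFA2 (YNL145W), STE2 (YFL026W), STE6 (YKL209C), BAR1 (YIL015W), AGA1 (YNR044W), AGA2 (YGL032C), ASG7 (YJL170C), and FUS1 (YCL027W). The study sequenced RNA from 9 groups of 3 biological replicates, or 27 libraries. Every culture grew in synthetic complete medium with 2% glucose, the non-restricted (NR) condition. One group at each time received, from inoculation on, a concentrate of conditioned medium from calorie-restricted stationary-phase cultures (CRCM), one received the concentrate from NR cultures (NRCM), and one received water. Both concentrates were added at 2% by volume. Cells were taken in log phase, at 24 h (late diauxic shift), and at 96 h (stationary phase). As the paper describes them, all cultures were of 1 mating type and 1 strain, so the design included no mating partner and no second genetic background.

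An a cell and an alpha cell find each other through secreted peptides. The a cell makes a-factor from MFA1 and MFA2, exports it through the STE6 transporter, and senses alpha-factor with the STE2 receptor, while the secreted protease BAR1 cuts alpha-factor down. AGA1 and AGA2 form the cell-surface agglutinin of a cells, AGA1 as the anchor and AGA2 as the adhesive subunit. ASG7 encodes a protein that dampens the pheromone signal after mating, and FUS1 encodes a membrane protein of cell fusion. MFA1, MFA2, STE2, STE6, BAR1, AGA2, and ASG7 are a-specific genes, which the factor Mcm1 activates in a cells and which Mcm1 together with alpha2 represses in alpha cells. AGA1 and FUS1 are used by both haploid types and are known for their induction by pheromone through Ste12.

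The DNA upstream of the members differs along the same line, and the sites are shown because they separate the 7 a-specific genes from AGA1 and FUS1. In the 500 bases before the start codon, the P-box core bound by Mcm1 (CC and GG with 6 bases of any kind between them, which reads the same on both strands) was found in each of the 7 a-specific genes and not in AGA1 or FUS1. By itself it is common, being present before 49.1% of 6019 genes. The core next to an alpha2 half-site (TGT, then 5 or 6 bases of any kind, then the core, on either strand) was found in the same 7 genes and before 4.97% of all genes. These searches overlap, since the longer motif contains the P-box core. One site of 30 bases is given for each, 5′ to 3′ on the strand of the gene, in the sacCer3 build (R64) as read from RefSeq, with the P-box core in capitals.
MFA1, chrIV:1384942-1384971, plus strand: tgtgtaattaCCCAAAAAGGaaatttacat
MFA2, chrXIV:352163-352192, plus strand: catgtatttaCCTATTCGGGaaatttacat
STE2, chrVI:82352-82381, plus strand: atgtaaatttCCTAATTGGGtaagtacatg
STE6, chrXI:46478-46507, minus strand: catgtaattaCCTAATAGGGaaatttacac
BAR1, chrIX:322078-322107, plus strand: catgtaattaCCGTAAAAGGaaattacatg
AGA2, chrVII:437102-437131, minus strand: catgtaatttCCGAATACGGtaattacacg
ASG7, chrX:101906-101935, minus strand: aacgtaattaCCGCATCGGGaaatttacat

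The pheromone response element bound by Ste12, searched as TGAAACA on both strands, was found at least once before each of the 9 members and before 12% of the 6019 genes. For the pheromone-induced pair that lacks the P-box, windows are given in the same build and direction with the element in capitals.
AGA1, chrXIV:703486-703514, plus strand: acataattttcTGAAACAatattaaaaca
FUS1, chrIII:71605-71633, plus strand: tggtgcgatgaTGAAACAaacatgaaacg
FUS1, chrIII:71632-71660, plus strand: cgtctgtaattTGAAACAaataacgtaat
A match describes the letters of the genome only. Each member has 1 coding exon and overlaps no other RefSeq gene. The genes lie at chrIV:1385176-1385286 (MFA1, plus strand), chrXIV:352414-352530 (MFA2, plus), chrVI:82580-83875 (STE2, plus), chrXI:42423-46295 (STE6, minus), and chrIX:322342-324105 (BAR1, plus). AGA1 lies at chrXIV:703699-705876 (plus), AGA2 at chrVII:436570-436833 (minus), ASG7 at chrX:101150-101779 (minus), and FUS1 at chrIII:71803-73341 (plus).

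The libraries held 7396427 to 114316087 reads on genes (median 12375131), so a level of 1 CPM (reads per 1000000 reads of the library) rests on 7 to 114 reads. The members were read 133 to 47427 times in a library. Levels are CPM scaled over the 27 libraries and are listed in the order of replicates 1, 2, and 3. In bulk, the sums of marker genes went with the MATa label. The 7 a-specific genes summed to 498 to 5099 CPM, and in every library this was above the sum of 5 alpha-specific genes, by 3.03-fold to 57.8-fold. None of the alpha-specific genes was at 0. The alpha-factor genes MF(ALPHA)1 and MF(ALPHA)2 ranged from 1.71 to 11.0 and from 3.80 to 21.0 CPM, the a-factor receptor gene STE3 from 3.73 to 50.6, the alpha-agglutinin gene SAG1 from 32.3 to 123, and the a-factor-blocking gene AFB1 from 21.7 to 59.7. Of the genes that are deleted in this strain, LEU2 had 58.1 CPM and URA3 9.99 CPM in CRCM replicate 3 at 96 h, whereas no other library exceeded 0.197 CPM for LEU2 or 0.125 CPM for URA3. That library thus did not match the stated genotype at LEU2 and URA3, and where these reads came from was not tested. MET15 had no reads in any library, and HIS3, which his3Δ1 removes only in part, was read in all of them. The members' comparisons of CRCM at 96 h, and the counts for the other gene lists there, are also given without this library, for the lists as an alternative chosen after seeing the data.

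**Figure D1:**
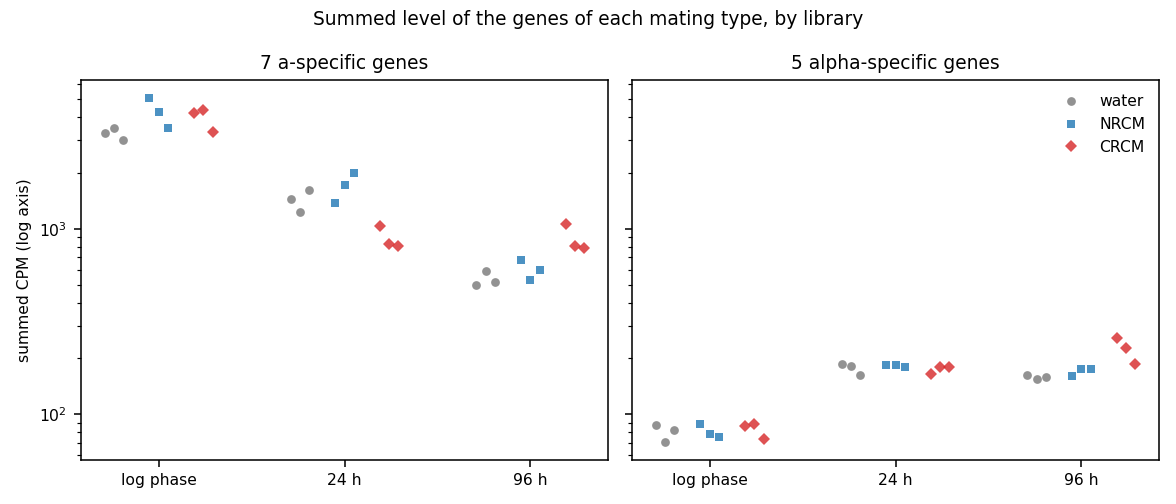
Summed CPM (log axis) of the 7 a-specific genes (left) and of 5 alpha-specific genes (right), with 1 point for each of the 27 libraries by time and supplement. The a-specific sum was 3020.0 to 3473 CPM with water in log phase and 498 to 593 CPM at 96 h, and the alpha-specific sum stayed below it in every library.

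In log-phase cells with water the a-factor genes stood far above the other members. Levels of different genes are compared per kilobase (kb) of coding length, which favors genes as short as MFA1 and MFA2 because untranslated RNA is not in that length. On this scale MFA2 averaged 5686 ± 1939.8 CPM per kb (SD, n = 3) and MFA1 3348 ± 676 CPM per kb, and their libraries overlapped. The receptor gene STE2 followed at 902 ± 55.9 CPM per kb, and the agglutinin gene AGA2 at 565 ± 61.6. BAR1 averaged 231 ± 29.1 CPM per kb, the transporter gene STE6 124 ± 18.3, and AGA1 94.1 ± 30.7. ASG7 and FUS1 were the lowest, at 36.0 ± 5.46 and 29.0 ± 10.3 CPM per kb. In this order the libraries overlapped between MFA2 and MFA1, between STE6 and AGA1, and between ASG7 and FUS1, and every other pair of neighbors was apart. With water AGA2 already stood above STE2 at 24 h (305 ± 44.3 and 223 ± 29.3 CPM per kb, libraries apart). With NRCM and CRCM the libraries of the pair overlapped at 24 h. At 96 h AGA2 stood above STE2 with water (125 ± 5.44 and 90.0 ± 8.86 CPM per kb), with NRCM (174 ± 12.5 and 86.2 ± 11.0), and with CRCM (270.4 ± 117 and 150.2 ± 15.1). AGA1 averaged 142 ± 74.8 CPM per kb with CRCM at 96 h, and its libraries overlapped with those of STE2.

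The concentrates did not change a member past the threshold in log phase. MFA1 was at 319.9, 458, and 337 CPM with water, 653, 536, and 596 CPM with NRCM, and 503, 518, and 382 CPM with CRCM. The NRCM libraries lay above all water libraries (log2 fold change 0.69 ± 0.18 given as estimate ± standard error, adjusted p = 0.547 from limma), whereas the CRCM libraries overlapped with water. STE2 was at 1232, 1090.4, and 1186 CPM with water, 2086, 1677, and 1238 with NRCM, and 1681, 1828, and 1329 with CRCM, so both concentrates gave libraries above all of those with water (adjusted p = 0.582 and 0.998, limma). Scaled within log phase, libraries were apart in 10% of all genes for NRCM against water and 8.31% for CRCM against water. No member passed an adjusted p of 0.05 in CRCM against water, NRCM against water, or CRCM against NRCM with limma, edgeR, or DESeq2, and over all genes the limma calls were 0%, 0.0154%, and 0%. At an unadjusted p under 0.05 the counts from limma were 1, 2, and 0 members, and the share of all genes at that threshold was not counted.

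As water cultures left log phase, most of these transcripts became scarce. STE2 was at 1232, 1090.4, and 1186 CPM in log phase, 296, 248, and 323 at 24 h, and 112, 129.8, and 108 at 96 h, and its libraries did not overlap between times. With water, 75.3% of all genes had no overlap between log phase and 24 h, and 72.4% had none between 24 h and 96 h. By 96 h the receptor RNA was at 9.98% of its log-phase mean. BAR1 followed the same course, at 407, 356, and 459, then 106, 104, and 123, then 44.7, 52.2, and 41.3 CPM. STE6 was at 554, 471, and 413 CPM in log phase, 119.9, 112, and 153 at 24 h, and 105, 116, and 104 at 96 h. The transporter RNA thus made its drop before 24 h (log2 fold change -1.89 ± 0.17, standard error), and its 24 h and 96 h libraries overlapped.

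Of the a-factor genes, MFA2 passed only in the second interval and MFA1 in both. MFA2 was at 629, 908, and 459 CPM in log phase and 615, 479, and 659 CPM at 24 h, with overlapping libraries (log2 fold change -0.14 ± 0.28, adjusted p = 0.652 from limma). At 96 h MFA2 was at 115, 143, and 118 CPM, a log2 fold change of -2.20 ± 0.28 against 24 h. MFA1 was at 204, 187, and 237 CPM at 24 h and 79.3, 102, and 96.8 CPM at 96 h, so it dropped in both intervals. In the agglutinin pair, AGA2 passed in both intervals and AGA1 only in the first. AGA2 was at 139, 168, and 140.4 CPM in log phase, 80.5, 68.9, and 92.4 at 24 h, and 31.5, 33.0, and 34.3 at 96 h. AGA1 was at 266, 134, and 215 CPM, then 100.5, 98.3, and 109, then 90.2, 94.6, and 88.6 CPM. The anchor gene thus differed little after 24 h, and the difference was not called (log2 fold change -0.17 ± 0.26, adjusted p = 0.595 from limma). Its 96 h libraries all lay below those at 24 h, as did those of 34.1% of all genes. The adhesive subunit went on falling (-1.26 ± 0.22).

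ASG7 had a course of its own with water. Its level was 19.6, 21.9, and 26.4 CPM in log phase, 27.4, 28.1, and 30.1 CPM at 24 h, and 11.8, 16.7, and 13.0 CPM at 96 h, so that it was highest at 24 h. The rise at 24 h was small (log2 fold change 0.33 ± 0.13, adjusted p = 0.0265 from limma), and the call was lost without water replicate 1 or 2 in log phase or water replicate 3 at 24 h (adjusted p = 0.134, 0.0592, and 0.0833) and without scaling factors (0.18, adjusted p = 0.242). FUS1 was at 37.0, 34.0, and 62.8 CPM in log phase, 23.4, 23.9, and 19.8 CPM at 24 h, and 22.6, 25.8, and 23.8 CPM at 96 h, so it fell early and then stayed level. Between log phase and 24 h with water, 7 members fell and 1 rose, where 76.3% of all genes were called, 37% higher and 39.3% lower. Between 24 h and 96 h, 6 members fell and none rose, where 53.7% of all genes were called, 27.2% higher and 26.5% lower. These directions are relative to the typical gene. With the scaling factors left out, the median of all genes moved by 0.71 on the log2 scale between 24 h and 96 h, the calls over all genes were 4571 higher and 602 lower in place of 1810 and 1763, and 6 members were lower and 2 higher, STE6 (0.44) and FUS1 (0.76). In bulk RNA, fewer cells that express a gene and less RNA per cell cannot be told apart.

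**Figure D2:**
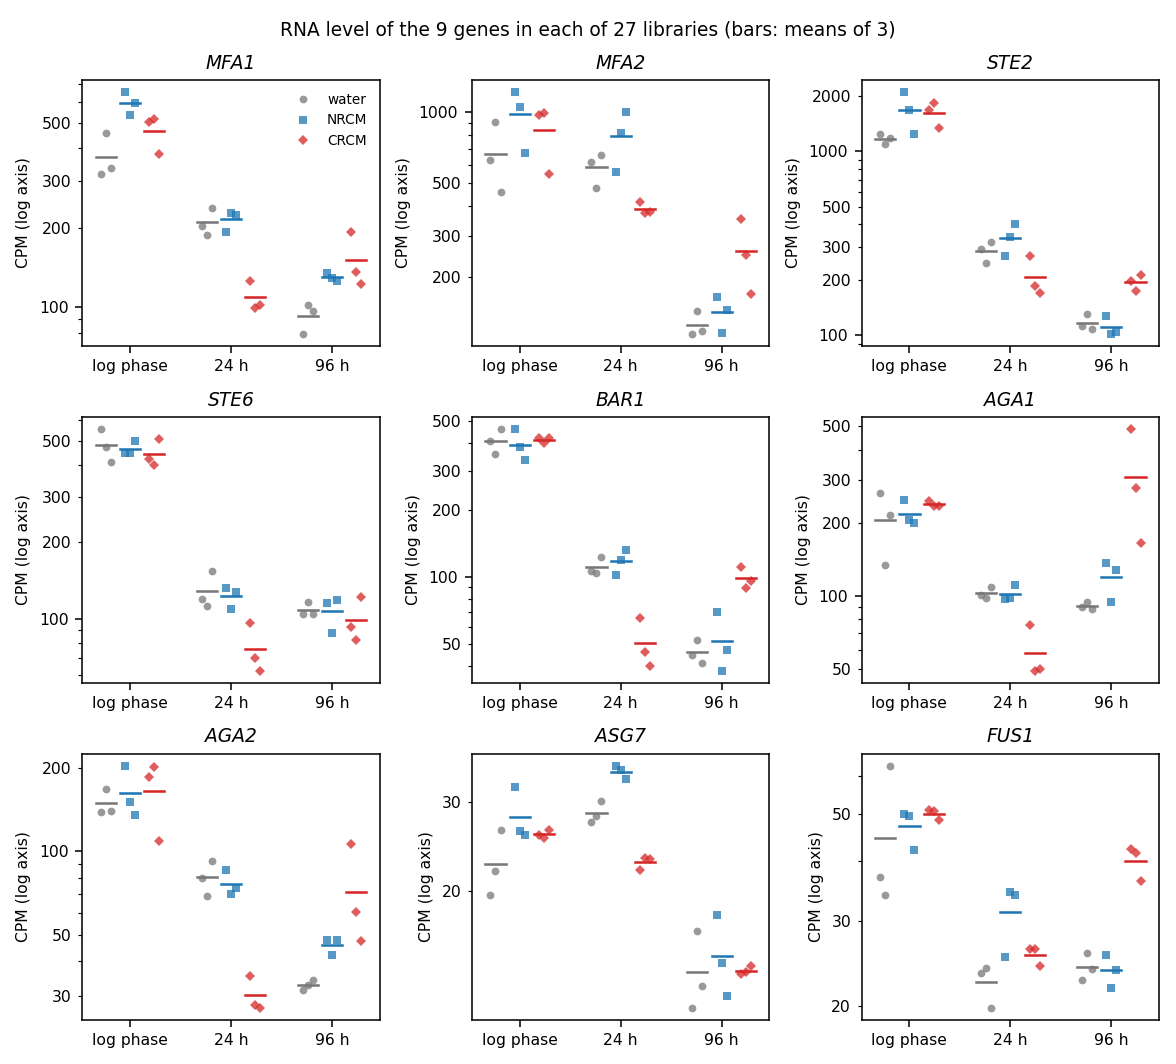
Level of each member in CPM (log axis) in log phase, at 24 h, and at 96 h. Points are the 3 libraries of a group with water (gray circles), NRCM (blue squares), or CRCM (red diamonds), and bars are their means. At 24 h the CRCM libraries of BAR1 (65.8, 46.3, and 39.9 CPM) lay below those with water, and at 96 h (111, 89.7, and 96.4 CPM) they lay above them.

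At 24 h the a-cell genes were lower with CRCM. Of the 9 members, 7 were lower with CRCM than with water and none was higher, where 51.5% of all genes were called, 26.8% higher and 24.7% lower. The median log2 fold change of the members was -0.77, against 0.01 over all genes tested. Scaled at 24 h alone, the CRCM and water libraries were apart in 68.1% of all genes, 32.6% with CRCM below. MFA1, the first a-factor gene, was at 204, 187, and 237 CPM with water and 125, 99.6, and 101 CPM with CRCM. All CRCM libraries lay below all water libraries (log2 fold change -0.96 ± 0.13 given as estimate ± standard error, adjusted p = 0.00027 from limma). MFA2 was at 615, 479, and 659 CPM with water and 417, 375, and 379 CPM with CRCM, again with no overlap (log2 fold change -0.59 ± 0.20, adjusted p = 0.0338). The call for MFA2 was lost without any one of water replicates 1 and 3 and CRCM replicates 1, 2, and 3, at adjusted p values of 0.0981, 0.116, 0.0579, 0.0926, and 0.0849.

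The genes for clearing alpha-factor and exporting a-factor were lower too, whereas the receptor gene did not pass. BAR1, the alpha-factor protease, was at 106, 104, and 123 CPM with water and 65.8, 46.3, and 39.9 CPM with CRCM. Every CRCM library was below every water library, by a log2 fold change of -1.17 ± 0.17 (adjusted p = 0.000445, limma). STE6, the a-factor exporter, was at 119.9, 112, and 153 CPM with water and 96.0, 70.1, and 62.6 CPM with CRCM (log2 fold change -0.77 ± 0.17, adjusted p = 0.00396, no overlap). The receptor gene STE2 was at 296, 248, and 323 CPM with water and 269, 186, and 169.8 CPM with CRCM. CRCM replicate 1 lay within the range of the water libraries, and the difference did not pass (log2 fold change -0.51 ± 0.19, adjusted p = 0.0502). Without water replicate 2 or CRCM replicate 1 the adjusted p was 0.0431 or 0.0133, and DESeq2 gave 0.03.

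Both agglutinin genes were lower as well. AGA2 was at 80.5, 68.9, and 92.4 CPM with water and 35.5, 27.9, and 27.2 CPM with CRCM, a log2 fold change of -1.40 ± 0.14 (adjusted p = 5.61e-05, limma), the largest among the 9. AGA1 was at 100.5, 98.3, and 109 CPM with water and 75.8, 49.1, and 50.1 CPM with CRCM (-0.85 ± 0.15, adjusted p = 0.00124). Neither gene had overlapping libraries. ASG7 was at 27.4, 28.1, and 30.1 CPM with water and 22.1, 23.3, and 23.1 CPM with CRCM, a smaller change of -0.33 ± 0.08 (adjusted p = 0.00778). FUS1 did not go with the others, at 23.4, 23.9, and 19.8 CPM with water and 26.2, 26.2, and 24.1 CPM with CRCM (0.16 ± 0.13, adjusted p = 0.305). Without scaling factors, the median of all genes moved by 0.42 and the calls over all genes were 3779 higher and 654 lower in place of 1761 and 1627. MFA1, BAR1, AGA1, and AGA2 then stayed lower, the calls of MFA2 (-0.16), STE6 (-0.35), and ASG7 (0.081) were lost, and FUS1 was higher (0.57).

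The lower levels with CRCM at 24 h were seen against the other conditioned medium as well. With NRCM, MFA1 was at 193, 228, and 224 CPM and MFA2 at 557, 819.7, and 1002 CPM, all above the CRCM libraries (log2 fold change of CRCM against NRCM -1.001 ± 0.13 and -1.001 ± 0.20). BAR1 was at 103, 120.0, and 132 CPM with NRCM (-1.25 ± 0.17), and AGA2 at 85.8, 70.3, and 73.7 CPM (-1.34 ± 0.14). AGA1, STE6, and ASG7 were lower too (-0.84 ± 0.15, -0.72 ± 0.17, and -0.59 ± 0.08). In all, 8 members were lower with CRCM than with NRCM and none was higher, where 41.9% of all genes were called, 21.9% higher and 20% lower, with adjusted p values from limma of 0.000127 to 0.0143. Scaled at 24 h alone, the CRCM and NRCM libraries were apart in 53.6% of all genes, 25.5% with CRCM below. STE2 was at 269, 343, and 401 CPM with NRCM, and its lowest library met the highest one with CRCM (-0.72 ± 0.19, adjusted p = 0.0143). Scaled at 24 h alone, its CRCM libraries all lay below those with NRCM. The call of STE2 was lost without CRCM replicate 2 or 3 (adjusted p = 0.0566 and 0.0575). Without scaling factors the calls over all genes were 3451 higher and 545 lower in place of 1443 and 1313, and those of STE2 (-0.37) and STE6 (-0.37) were lost. FUS1 was the exception, at 25.3, 34.4, and 34.0 CPM with NRCM (-0.29 ± 0.13, adjusted p = 0.0981), but without NRCM replicate 1 it passed (-0.41, adjusted p = 0.00565).

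With NRCM, few differences from water passed at 24 h. FUS1 was the 1 member called, higher by a log2 fold change of 0.45 ± 0.13 (adjusted p = 0.0456, limma), where 13.2% of all genes were called, 6.71% higher and 6.45% lower. The call of FUS1 was lost without any one of water replicates 1, 2, and 3 and NRCM replicates 2 and 3 (adjusted p = 0.109, 0.0625, 0.158, 0.154, and 0.121). Without NRCM replicate 1, on the other hand, FUS1, MFA2 (0.67), and ASG7 (0.26) were all called higher. For the remaining members the log2 fold changes of NRCM against water ran from -0.07 to 0.41. Both CRCM comparisons at 24 h use the same CRCM libraries.

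**Figure D3:**
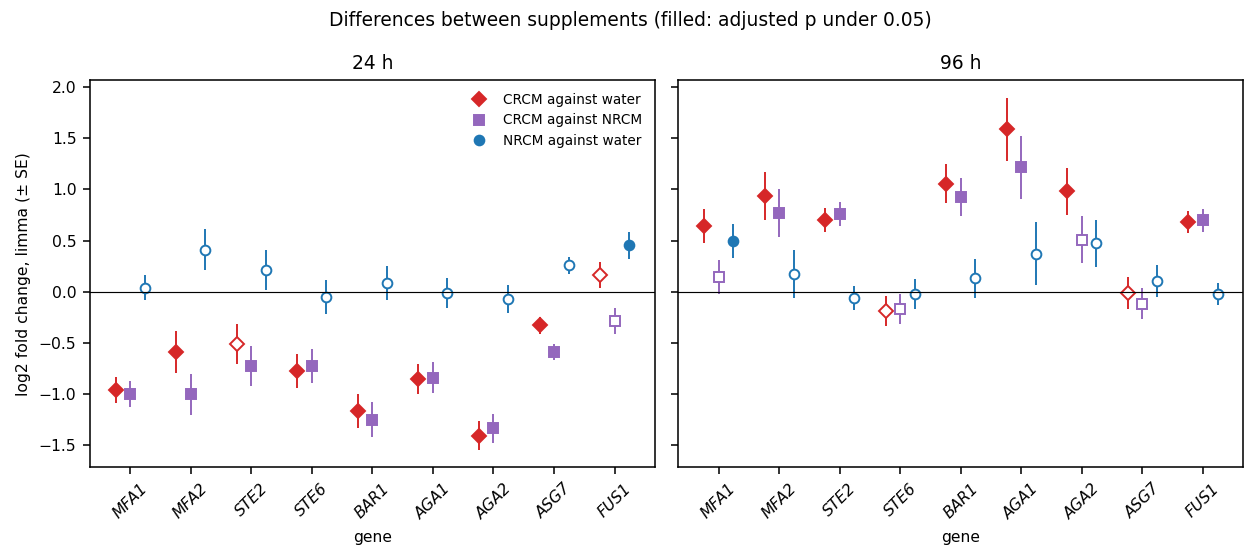
Log2 fold change of each member at 24 h (left) and 96 h (right) for CRCM against water, CRCM against NRCM, and NRCM against water, with standard errors of limma from 3 libraries per group and filled symbols where the adjusted p was under 0.05. CRCM values run from -1.40 for AGA2 to 0.16 for FUS1 at 24 h against water, and from -0.18 for STE6 to 1.59 for AGA1 at 96 h.

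At 96 h the direction was the opposite. With CRCM, 7 of the 9 members were called above their water level and none was called below it, where 41.4% of all genes were called, 19.5% higher and 21.9% lower. The members' median log2 fold change was 0.70, against -0.02 over all genes tested. Scaled at 96 h alone, the CRCM and water libraries were apart in 53.5% of all genes, 24.9% with CRCM above. AGA1, the anchor of the agglutinin, changed most. It was at 90.2, 94.6, and 88.6 CPM with water and 487, 278, and 166 CPM with CRCM, so the CRCM libraries were spread wide and all lay above the water libraries (log2 fold change 1.59 ± 0.31, adjusted p = 0.00223 from limma). Its partner AGA2 was at 31.5, 33.0, and 34.3 CPM with water and 106, 60.3, and 47.6 CPM with CRCM (0.98 ± 0.23, adjusted p = 0.00642), and the order of the 3 CRCM libraries was that of AGA1. FUS1 was at 22.6, 25.8, and 23.8 CPM with water and 42.2, 41.4, and 36.2 CPM with CRCM (0.68 ± 0.11, adjusted p = 0.000754).

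The pheromone and receptor genes were higher with CRCM than with water as well. MFA1 was at 79.3, 102, and 96.8 CPM with water and 193, 136, and 122 CPM with CRCM, with no overlap (log2 fold change 0.64 ± 0.16, adjusted p = 0.01 from limma). MFA2 was at 115, 143, and 118 CPM with water and 352, 249, and 169 CPM with CRCM (0.94 ± 0.24, adjusted p = 0.0091). STE2 was at 112, 129.8, and 108 CPM with water and 197, 174, and 213 CPM with CRCM (0.70 ± 0.12, adjusted p = 0.00113). In these genes the groups were apart, and the receptor libraries were closer together than those of the a-factor genes. BAR1 was at 44.7, 52.2, and 41.3 CPM with water and 111, 89.7, and 96.4 CPM with CRCM (1.06 ± 0.19, adjusted p = 0.0014), all CRCM libraries above all water libraries.

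STE6 and ASG7 were not called. STE6 was at 105, 116, and 104 CPM with water and 92.5, 82.2, and 121 CPM with CRCM (-0.18 ± 0.15, adjusted p = 0.341). ASG7 was at 11.8, 16.7, and 13.0 CPM with water and 13.7, 13.9, and 14.3 CPM with CRCM (-0.01 ± 0.16, adjusted p = 0.972). Both sets of libraries overlapped. Without CRCM replicate 3, the library with LEU2 and URA3 reads, the 7 higher members were called with log2 fold changes of 0.65 (STE2) to 1.98 (AGA1), and STE6 was then called lower (-0.33, adjusted p = 0.0439). Among the CRCM libraries at 96 h, replicate 3 was the lowest for 5 members (MFA1, MFA2, AGA1, AGA2, and FUS1) and replicate 1 the highest for 6. Its part in the result was measured only by leaving it out. The alpha-specific genes AFB1, MF(ALPHA)1, and SAG1 rose with CRCM too, relative to water at 96 h (0.83 ± 0.12, 0.73 ± 0.12, and 0.38 ± 0.13). They were 3 of 5 in the list, where 41.4% of all genes were called, 19.5% higher. With CRCM replicate 3 left out, AFB1, MF(ALPHA)1, and SAG1 were at 0.96, 0.75, and 0.52, and STE3 was also called (0.397). The alpha-specific sum was 188 to 258 CPM with CRCM, with replicate 3 the lowest, and 156 to 164 CPM with water, and its part in the result was not tested.

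Against NRCM at 96 h, 5 members were higher with CRCM and none was lower, where 37% of all genes were called, 17.3% higher and 19.7% lower. The libraries, scaled at 96 h alone, were apart in 47.6% of all genes, 22.8% with CRCM above. STE2 was at 128, 102, and 105 CPM with NRCM, below every CRCM library (0.76 ± 0.12, adjusted p = 0.00086 from limma). BAR1 was at 69.9, 38.2, and 47.1 CPM with NRCM (0.93 ± 0.19, adjusted p = 0.0036). Likewise AGA1, at 136, 94.1, and 127 CPM, and FUS1, at 25.5, 21.8, and 23.8 CPM, lay below the CRCM libraries (1.22 ± 0.31 and 0.70 ± 0.11). MFA2 was at 164, 116, and 145 CPM with NRCM and passed narrowly (0.77 ± 0.24, adjusted p = 0.026). Its groups were apart on this scale but overlapped when scaled at 96 h alone, and the call was lost without CRCM replicate 1 or 2 or NRCM replicate 2 or 3 (adjusted p = 0.0585, 0.066, 0.101, and 0.0611). MFA1 was at 134, 129, and 126 CPM and AGA2 at 47.7, 42.1, and 48.0 CPM with NRCM, and neither passed (0.14 ± 0.16 and 0.51 ± 0.23), although AGA2 passed without CRCM replicate 3 (0.77, adjusted p = 0.00412).

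Between NRCM and water at 96 h, MFA1 was the 1 member called, higher by 0.497 ± 0.16 on the log2 scale (adjusted p = 0.048, limma), where 24.6% of all genes were called, 12.5% higher and 12.1% lower. The call did not hold without any one of the 6 libraries, at adjusted p values from 0.0777 (without water replicate 2) to 0.174 (without water replicate 1). AGA2 was higher with NRCM than with water in all libraries but did not pass (0.47 ± 0.23, adjusted p = 0.156). Over all genes, 54% had libraries apart in this comparison, 27.3% with NRCM above.

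The turn from lower to higher was tested as the change of the CRCM difference between 24 h and 96 h. Against water, the change passed for 6 members, each in the upward direction, where 30% of all genes were called, 15.5% higher and 14.5% lower. AGA1 (2.45 ± 0.37, adjusted p = 2.69e-05 from limma), AGA2 (2.40 ± 0.32), and BAR1 (2.23 ± 0.26) turned by more than 2 log2 units. MFA1 (1.61 ± 0.24), MFA2 (1.54 ± 0.40), and STE2 (1.22 ± 0.27) followed. STE6 (0.60 ± 0.24, adjusted p = 0.0562) did not pass but was called without water replicate 2 at 24 h, CRCM replicate 1 at 24 h, or CRCM replicate 2 at 96 h (0.70, 0.78, and 0.72). With all libraries kept, STE6 was called by DESeq2 (adjusted p = 0.0293) and by limma with median-of-ratios factors (0.0443) or the replicate block (0.0416). FUS1 did not pass either, but it was called by DESeq2 (adjusted p = 0.043) and by limma with median-of-ratios factors (0.0481). Against NRCM, 8 members passed, where 28.1% of all genes were called, 14.7% higher and 13.4% lower. The values against NRCM ran from 0.49 for ASG7, whose adjusted p was 0.0492, to 2.19 for BAR1, and the member that missed was STE6 (0.58 ± 0.24, adjusted p = 0.071). The ASG7 call was lost without any one of the 3 CRCM libraries at 24 h or at 96 h, the 3 NRCM libraries at 24 h, or NRCM replicate 2 or 3 at 96 h, at adjusted p values from 0.0616 to 0.149. STE6 was called without CRCM replicate 1 at 24 h (0.75) or CRCM replicate 2 at 96 h (0.70). No member passed for NRCM against water (1.38% of all genes), with 1 at an unadjusted p under 0.05 and none called by edgeR or DESeq2. The share of all genes at the unadjusted threshold was not counted. Without CRCM replicate 3 at 96 h, the 6 changes against water were called at 1.16 (STE2) to 2.83 (AGA1), and 7 of the 8 against NRCM, all but ASG7, at 1.07 (FUS1) to 2.45 (AGA1). The comparisons against water and against NRCM share the CRCM libraries.

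Through time, most members fell in CRCM cultures by 24 h, and 5 of the 9 then rose by 96 h. From log phase to 24 h, 8 members fell with CRCM, where 76.1% of all genes were called, 39.6% higher and 36.5% lower. BAR1 went from 419.6, 399, and 420.4 CPM to 65.8, 46.3, and 39.9 CPM, or 12.3% of the log-phase mean, against 27.3% with water and 30.1% with NRCM, and FUS1 was at 51.0%, 50.2%, and 66.2%. These percentages were not tested between supplements. From 24 h to 96 h, 5 members rose and 1 fell with CRCM, where 47.2% of all genes were called, 22.5% higher and 24.7% lower. AGA1 rose by 2.28 ± 0.26 on the log2 scale, AGA2 by 1.14 ± 0.22, BAR1 by 0.98 ± 0.18, FUS1 by 0.63 ± 0.16, and MFA1 by 0.44 ± 0.17, while ASG7 fell (-0.67 ± 0.13). The call of MFA1 was lost without CRCM replicate 2 or 3 at 24 h or CRCM replicate 1 at 96 h (0.38, 0.41, and 0.25). Without CRCM replicate 3 at 96 h, the same 5 members were called higher (0.58 for MFA1 to 2.66 for AGA1) and ASG7 lower (-0.68). MFA2 (-0.66 ± 0.28, adjusted p = 0.0564) was called lower without CRCM replicate 1 at 96 h (-0.92), and STE6 (0.37 ± 0.17, adjusted p = 0.0712) higher without CRCM replicate 1 at 24 h or 2 at 96 h (0.55 and 0.49) or without scaling factors (0.503).

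At 96 h the mean of AGA1 was 130.0% of its CRCM log-phase mean, with libraries on both sides of those in log phase, and this became 93.0%, 137%, or 160.3% without CRCM replicate 1, 2, or 3 at 96 h. STE2 was at 12.1% and MFA2 at 30.6%, with no overlap. No test was run between 96 h and log phase. In NRCM cultures 7 members fell and ASG7 rose by 24 h (where 78.4% of all genes were called, 38.8% higher and 39.5% lower), and 7 fell and none rose from 24 h to 96 h (where 57.1% of all genes were called, 28.8% higher and 28.3% lower). In that second interval MFA2 fell by 2.45 and STE2 by 1.58 on the log2 scale, and AGA1 did not pass (0.21 ± 0.26, adjusted p = 0.504). Without scaling factors the calls over all genes in that interval were 3797 higher and 807 lower in place of 1915 and 1884, and 4 members were lower and 1 higher. AGA1 was then called higher (0.72, adjusted p = 0.0143), and MFA1 (-0.204), AGA2 (-0.21), and FUS1 (0.13) were not called. The rise of ASG7 with NRCM (0.29 ± 0.13) and the late fall of FUS1 (-0.37 ± 0.16) were each lost without any one of 5 libraries. For ASG7 these were NRCM replicates 2 and 3 in log phase and 1, 2, and 3 at 24 h, with adjusted p values of 0.0628 to 0.145. For FUS1 they were NRCM replicates 2 and 3 at 24 h and 1, 2, and 3 at 96 h, with 0.0538 to 0.171.

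Other lists of mating genes were read against all genes in CRCM against water, of which 26.8% were called higher and 24.7% lower at 24 h, and 19.5% higher and 21.9% lower at 96 h. No list was tested against the members. In the signaling list (G protein, kinase cascade, and Ste12 with its inhibitors), 3 of 16 genes were higher and 4 lower at 24 h, where 51.5% of all genes were called, and at 96 h, where 41.4% were called, 3 were higher and 3 lower. Leaving out CRCM replicate 3 at 96 h gave 3 higher and 4 lower. The list medians of the log2 fold change were 0.09 and 0.01. FUS3, the mating MAP kinase, averaged 82.1 CPM with water and 135 CPM with CRCM at 24 h (0.71 ± 0.16, adjusted p = 0.0056 from limma) and was also higher at 96 h (1.02 ± 0.10). MSG5, which encodes a phosphatase that acts on Fus3, was higher at 24 h (0.74 ± 0.17), and STE4, the beta subunit of the G protein, was lower (-0.52 ± 0.10). At 96 h DIG1, an inhibitor of Ste12, was higher (0.66 ± 0.10), and SST2, which turns off the G protein, was lower (-0.59 ± 0.11).

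Among other pheromone-induced genes, 1 of 17 was higher and 8 were lower at 24 h, and 4 were higher and 5 lower at 96 h, with medians of -0.08 and -0.06, where 51.5% and 41.4% of all genes were called. At 96 h, 5 were higher and 6 lower without CRCM replicate 3. PRM7, a pheromone-regulated membrane protein gene, averaged 63.5 CPM with water and 13.5 CPM with CRCM at 24 h (-2.14 ± 0.29) and was lower at 96 h also (-1.92 ± 0.16). PRM10 was lower at both times (-1.01 ± 0.10 and -1.32 ± 0.14), PRM5 was lower at 24 h (-1.39 ± 0.11), and FIG1, which takes part in mating, was higher at 96 h (1.08 ± 0.22). PRM7 and PRM10 thus kept 1 direction at both times. Among the enzymes of a-factor maturation, 1 of 6 was higher and 1 lower at 24 h, and 2 were higher and 2 lower at 96 h, where 51.5% and 41.4% of all genes were called. STE24, a protease that trims the precursor, was lower at 24 h (-0.80 ± 0.11), when RAM1 was higher (0.27 ± 0.08), AXL1, another of its proteases, was lower at 96 h (-0.48 ± 0.09), and the farnesyltransferase genes RAM2 and RAM1 were higher at 96 h (0.60 ± 0.11 and 0.56 ± 0.14). STE24 was also called higher at 96 h without CRCM replicate 3 (0.44).

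Of the regulators of mating-type genes, CRCM against water at 24 h gave 3 of 7 higher and 2 lower, where 51.5% of all genes were called. MCM1, the activator of a-specific genes, averaged 76.9 CPM with water and 137 CPM with CRCM (0.83 ± 0.10, adjusted p = 0.000166 from limma), while SIR2, a subunit of the silencing complex, was lower (-0.93 ± 0.09). CYC8, a corepressor subunit, was higher (0.43 ± 0.13). At 96 h TUP1, its partner, was the 1 regulator called (0.32 ± 0.09), where 41.4% of all genes were called. When CRCM replicate 3 was left out, CYC8 was called higher (0.22) and SIR4 lower (-0.23) as well. In the other lists at 96 h, each gene called in CRCM against water was called in the same direction without that library. Copies of the same gene at the silent and expressed mating-type loci are nearly identical in sequence, so reads of a shared gene cannot be assigned to 1 copy. The rows MATALPHA1 and MATALPHA2 come from the sacCer3 annotation, whereas a MATa strain such as BY4741 has no alpha genes at MAT. Among 6 annotated genes of these loci, 3 were higher and none lower with CRCM at 24 h, where 51.5% of all genes were called. At 96 h, 3 were higher and 1 lower, where 41.4% were called. The 3 higher rows share sequence and are not separate results. MATALPHA2, HMLALPHA2, and HMRA2, which share sequence, were higher by 0.71 ± 0.12, 0.66 ± 0.11, and 0.60 ± 0.11 at 24 h and by 0.61 ± 0.15, 0.66 ± 0.17, and 0.64 ± 0.14 at 96 h. HMLALPHA1 averaged 2.997 CPM with water and 0.832 CPM with CRCM at 96 h (-1.09 ± 0.29, adjusted p = 0.0128). MATALPHA1 and HMRA1 were not called at either time (-0.39 and 0.16 at 24 h, -0.69 and 0.35 at 96 h), and without CRCM replicate 3 MATALPHA1 was called lower at 96 h (-1.11). For the genes that share sequence, these values do not show which locus the reads came from. Reads counted under MATALPHA2 therefore do not show an alpha2 gene at MAT in this MATa strain. The 5 alpha-specific genes had a median log2 fold change of 0.03 at 24 h and adjusted p values of 0.126 to 0.883 from limma. Their libraries overlapped in each, where those of 68.1% of all genes did not. At an unadjusted p under 0.05 there were 0 of them, and the share of all genes at that threshold was not counted.

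**Figure D4:**
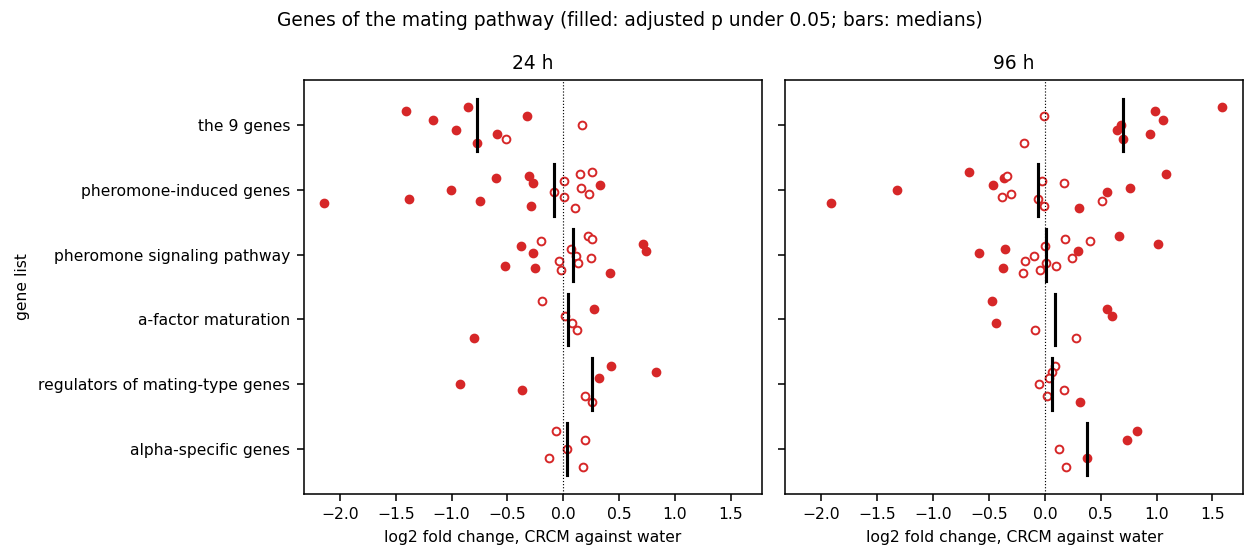
Log2 fold change of CRCM against water at 24 h (left) and 96 h (right) for the 9 members and 5 other lists of mating genes, with 1 point per gene, filled where the limma adjusted p was under 0.05, and a bar at the list median. The members' median was -0.77 at 24 h and 0.70 at 96 h, against -0.08 and -0.06 for the pheromone-induced genes.

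Across the 9 group means of log2(CPM + 1), 5 of the a-specific genes kept closely together. Pearson's r among MFA1, STE2, STE6, BAR1, and AGA2 was 0.91 to 0.977 in 10 pairs. MFA2, which held its level to 24 h, had r of 0.291 to 0.91 with the other members, and the highest of these was with ASG7. AGA1 had r of -0.0729 to 0.841, the lowest with ASG7, and FUS1 0.239 to 0.869. The points share libraries and the large step between log phase and later times, and the 5 genes were grouped with these values in view. The values are thus a description. Among 6247 other genes, those whose group means were most like the mean profile of the 7 a-specific genes were GPM1 (r = 0.994 over 9 groups), TOS6 (0.993), ERP1 (0.992), the ORF YKL153W (0.992), and ERG1 (0.990). GPM1 encodes phosphoglycerate mutase and ERG1 squalene epoxidase. GPM1 (YKL152C) and YKL153W have neighboring ORF numbers, and whether they share reads was not tested.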

How the data were processed

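Per the paper's methods, poly(A) RNA was made into NEBNext libraries, and bowtie2 placed the reads on sacCer3. The labels also name bedtools, edgeR, and DESeq2. How reads were assigned to genes, and with which strand setting, is not given in the sources used here. The deposited values are a signal that the authors divided by each library's total, since the 27 columns of 6692 genes each sum to 1 although the table is titled as raw counts. All columns were used (0 were left out). Whole reads were recovered from the shares, and 100% of testable values were whole within 0.1 read.

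Shares were scaled to CPM with TMM factors (edgeR 4.0.16). Levels use factors over 27 libraries. Tests between supplements used factors over the 9 libraries of a time point. The ratio of these factors to those over 27 libraries varied by at most 5.75% among the libraries of a time point. The ratio itself ran from 0.784 (water replicate 2 at 96 h) to 1.17 (NRCM replicate 2 in log phase). Printed levels thus differ from the tested ones by a nearly common factor at each time. The test, on genes that reached 1 CPM in 3 or more libraries, was limma 3.58.1 (R 4.3.3, variance trend) on log2(CPM + 1), so fold changes of low genes are understated. Time points and interactions used all 27 libraries. Every adjusted p (Benjamini-Hochberg over all genes, threshold 0.05) is from limma unless another tool is named. The code was tested on simulated data. Alternatives were pseudocounts of 0.25 and 4, no filter, no TMM factors, median-of-ratios factors, edgeR's quasi-likelihood test and DESeq2 1.42.0 on recovered reads, other sets of libraries, a replicate block, and leaving out each library.

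Same-numbered CRCM and NRCM libraries deviated together in log phase (r = 0.469 to 0.74) and at 24 h (0.219 to 0.335), a pairing seen in the data and stated nowhere. No 2 replicates agreed within sampling noise (chi-square per degree of freedom at least 3.79). The members and the 7 other gene lists were chosen with earlier results of these data known. From each list, up to 3 called genes with the largest change and at least 10 CPM were named, and the 5 genes most like the a-specific profile. RefSeq supplied positions and upstream sequence.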

Additional observations from a re-analysis of the deposited data

Results flagged for a closer look

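The difference between CRCM and water was not the same at 24 h and at 96 h for 6 members, by an interaction term over the 27 libraries with limma. The change of the log2 fold change, with its standard error, was positive in each, for MFA1 (1.61 ± 0.24), MFA2 (1.54 ± 0.40), STE2 (1.22 ± 0.27), BAR1 (2.23 ± 0.26), AGA1 (2.45 ± 0.37), and AGA2 (2.40 ± 0.32), with adjusted p values of 1.23e-06 to 0.00543. In 5 of the 6, a difference that passed at 24 h passed with the opposite sign at 96 h. In STE2 the lower level at 24 h did not pass.

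The difference between CRCM and NRCM changed in the same way for 8 members, for MFA1 (1.16 ± 0.24), MFA2 (1.79 ± 0.40), STE2 (1.501 ± 0.27), BAR1 (2.19 ± 0.26), AGA1 (2.07 ± 0.37), AGA2 (1.86 ± 0.32), ASG7 (0.49 ± 0.19), and FUS1 (0.9998 ± 0.23), with adjusted p values of 2.82e-06 to 0.0492. For MFA1 and AGA2 the later difference from NRCM did not pass, and for ASG7 it was -0.12 ± 0.16, so the change there came with a lower level at 24 h and no called difference at 96 h. For FUS1 the earlier difference did not pass. Settings that lost the ASG7 call included edgeR (adjusted p = 0.0658), limma with the replicate block (0.0564), and limma without TMM factors (0.651). The 2 sets of changes share the CRCM libraries.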

How the results depend on the processing

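Other scalings, pseudocounts, filters, tools, and sets of libraries were tried for all 18 comparisons. Of 86 called differences of a member, 71 were called in the same direction under every setting, and 16 that were not called passed in at least 1 setting. The number of members called stayed within 1.5 times in 16 comparisons. The exceptions were both of NRCM against water. At 24 h, 1 member became 2 without TMM factors and 0 with the replicate number as a block, with only the 6 libraries compared, and with all 27 libraries in 1 fit, and leaving out 1 library gave 0 to 3. At 96 h, 1 became 0 without TMM factors, with edgeR, and with the replicate block, and 3 with only the 6 libraries compared, while each left-out library gave 0. Elsewhere leaving out 1 library gave 6 to 8 members at 24 h and 7 to 8 at 96 h for CRCM against water, and 7 to 9 and 4 to 6 for CRCM against NRCM.

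Without TMM factors, signs turned for ASG7 in CRCM against water at 24 h (0.081), STE6 in 96 h against 24 h with water (0.44), and FUS1 in 96 h against 24 h with NRCM (0.13). That setting moved the median of all genes in these comparisons by 0.42, 0.71, and 0.51, and 4 members were then lower and 1 higher in CRCM against water at 24 h. In CRCM against NRCM at 24 h it moved by 0.34, with 6 members lower. For the change of CRCM against water from 24 h to 96 h it moved by -0.55, with 6 members still called upward and 401 genes called higher and 3299 lower in place of 1033 and 964. Against NRCM the change gave 401 higher and 2389 lower in place of 981 and 892, with 7 members upward and ASG7 (0.118) not called. Over all genes it gave 928 higher and 1878 lower in place of 1297 and 1460 for CRCM against water at 96 h, 489 and 1109 in place of 831 and 806 for NRCM against water at 96 h, 585 and 293 in place of 441 and 424 at 24 h, 3375 and 1868 in place of 2636 and 2430 for 24 h against log phase with CRCM, and 1967 and 1211 in place of 1497 and 1647 for 96 h against 24 h with CRCM.

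Replicates 1, 2, and 3 share a number and no stated batch. Correlations of same-numbered libraries were all above 0.1 only for CRCM and NRCM in log phase and at 24 h, and there the replicate block gave 0 and 8 members, as without it. In the other comparisons the block moved 7 calls of members, and the pairs ranged in r from -0.375 to 0.469. Over all settings, 77 losses and 33 gains of calls with the sign kept were counted in 2592 values, besides the 3 turns of sign without TMM factors. The lowest count of a member in a library was 133 reads, for ASG7, and calls were not tested against depth.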

Other observations

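Some mating genes outside the 9 members changed with time in the same direction under every supplement. STE12, the factor that activates pheromone-induced genes, was higher at 96 h than at 24 h by a log2 fold change of 0.94 ± 0.19 with water, 0.95 ± 0.19 with CRCM, and 0.97 ± 0.19 with NRCM (standard error, limma, 3 libraries per group). RAM2, a subunit of the farnesyltransferase that modifies a-factor, was lower at 96 h by -1.38 ± 0.12 with water, -0.78 ± 0.12 with CRCM, and -1.53 ± 0.12 with NRCM. PRM5 was higher at 96 h in all 3, by 0.99 ± 0.17, 2.33 ± 0.17, and 1.56 ± 0.17. SIR4, a subunit of the silencing complex, was higher as well (1.09 ± 0.26, 0.92 ± 0.26, and 0.98 ± 0.26).

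MCM1 was higher with NRCM than with water at 24 h (0.43 ± 0.10, adjusted p = 0.0233) and at 96 h (0.44 ± 0.13, adjusted p = 0.035), and DIG1 likewise (0.69 ± 0.10 and 0.41 ± 0.10). In CRCM against water the MCM1 difference shrank between 24 h and 96 h (-0.75 ± 0.25, adjusted p = 0.0279). MF(ALPHA)2 was higher at 96 h than at 24 h with water (1.03 ± 0.17), CRCM (1.14 ± 0.17), and NRCM (1.62 ± 0.17), at means of at most 19.9 CPM.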
